A study of Mus musculus with 10 samples.

Results

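The genes described here are 39 type I interferon-stimulated genes, measured by RNA sequencing in mouse fat-cell precursors that had been exposed to bisphenol S or to its solvent. They were listed by name and chosen by their lower level after bisphenol S in these same libraries, so the difference between the groups is given below as a description, without a test. A listed gene counted as a member where it reached 10 counts in at least 5 libraries. All 39 listed genes reached that level in all 10 libraries, and all 39 are among the 14593 genes tested, of 32899 genes with a name. The member nearest the limit was Mx1, with 13 to 26 counts per library, and no listed gene fell outside it.

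The cells were preadipocytes from the inguinal subcutaneous fat (iSAT) of male wild-type C57BL/6 mice. Preadipocytes are the fibroblast-like progenitors that can be turned into fat cells in culture. Of the 10 libraries, 5 came from cells given dimethyl sulfoxide (DMSO, the solvent control) and 5 from cells given 2.5 µM bisphenol S (BPS), a plasticiser-related phenol used in place of bisphenol A, dissolved in DMSO. All cells shared the genotype, sex and depot and received DMSO. The length of the exposure is not stated in the labels, nor whether the 5 replicates are separate mice or separate cultures, so the p-values below measure only the spread between these libraries.

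Type I interferons are secreted proteins that nearly every nucleated cell can make when it senses foreign nucleic acid. They bind the receptor pair Ifnar1 and Ifnar2, whose kinases Jak1 and Tyk2 phosphorylate Stat proteins, Stat2 among them, which join Irf9 to form the transcription factor ISGF3. ISGF3 binds the interferon-stimulated response element (ISRE) in front of its target genes, whose products detect viral RNA, block translation or viral assembly, tag proteins with Isg15, or restrain the signal again. Cells that meet no virus also transcribe many of these genes at a low level.

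The ISRE was searched for in promoter windows from RefSeq (GRCm38.p6, 250 bases before to 50 after each start), because ISGF3 binds it. No sequence was used to choose the members, but they were listed as genes of this pathway, so the shares below are a description. Its core was spelled GAAA, any 2 bases (NN), GAAA, which reads TTTC, NN, TTTC from the other strand. Both strands were searched, and overlapping cores were counted separately, although their capitals run together below. Windows were found for 28 of the 39 members, and 13 of the 28 (46.4%) held a core. Among all genes with a window the share was 1079 of 27025 (3.99%), and among the tested genes 434 of 11455 (3.79%). In a wider list of other interferon-stimulated genes 24 of 50 (48%) held it. The stretches printed next are those of the members whose core lies before the start of transcription, given 5′ to 3′ on the gene's strand, with the core in capitals and up to 30 bases on either side.
Isg15, chr4:156200845-156200926, minus strand: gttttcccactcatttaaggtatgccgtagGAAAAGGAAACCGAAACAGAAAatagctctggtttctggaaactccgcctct
Ifit1, chr19:34640755-34640843, plus strand: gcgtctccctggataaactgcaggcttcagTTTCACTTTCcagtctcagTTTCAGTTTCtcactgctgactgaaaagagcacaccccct
Ifit3, chr19:34583343-34583446, plus strand: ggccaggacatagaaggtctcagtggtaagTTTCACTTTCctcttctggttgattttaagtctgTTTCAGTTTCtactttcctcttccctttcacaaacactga
Ifit3b, chr19:34607739-34607842, plus strand: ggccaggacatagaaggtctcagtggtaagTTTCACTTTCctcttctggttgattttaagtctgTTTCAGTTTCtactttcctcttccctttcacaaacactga
Oas1a, chr5:120907526-120907575, minus strand: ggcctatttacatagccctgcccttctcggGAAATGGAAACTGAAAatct
Rsad2, chr12:26456533-26456602, minus strand: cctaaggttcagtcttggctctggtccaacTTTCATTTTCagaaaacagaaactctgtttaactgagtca
Stat2, chr10:128270248-128270315, plus strand: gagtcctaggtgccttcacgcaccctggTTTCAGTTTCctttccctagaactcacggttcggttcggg
Trim30a, chr7:104465194-104465259, minus strand: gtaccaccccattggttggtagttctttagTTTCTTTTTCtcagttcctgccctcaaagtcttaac
Bst2, chr8:71537557-71537632, minus strand: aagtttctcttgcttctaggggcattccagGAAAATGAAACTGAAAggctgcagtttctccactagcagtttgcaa

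In Isg15, 3 overlapping cores formed 1 run. Ifit1, Ifit3 and Ifit3b each held a pair of separate cores, and the stretches of Ifit3 and Ifit3b were identical in 104 of 104 bases, although the first core began 156 bases before the start of Ifit3 and 188 bases before that of Ifit3b. The distance from the core to the start was shortest in Oas1a, at 20 bases, and longest in Stat2, at 222 bases. In Ddx58, Eif2ak2, Ifih1 and Ifitm3 the core lay after the start, inside the transcribed part of the window, and their sequences are not shown. The GAS core TTCNNNGAA, another element bound by Stat proteins, stood in 7 of 28 members (25%), in 4 of 50 other interferon-stimulated genes (8%) and in 945 of 11455 tested genes (8.25%). A match describes letters in this window and is not a measured binding site.

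Values below are CPM, the counts of a gene per 1000000 counts assigned to genes in its library, after edgeR's trimmed-mean (TMM) scaling. A gene's level is not divided by its length, so levels are compared between libraries and not between genes. Changes are log2 fold changes of BPS over DMSO from edgeR's fit, with their standard error (SE), and a negative value means a lower level in BPS. The libraries held 37920689 to 42717227 counts each. Over all genes the fit called 711 of 14593 (4.87%) at an adjusted p of 0.05, and 446 of these were higher and 265 lower in BPS, so that 62.73% were higher. With scaling by library size alone, 725 were called and 46.07% of them were higher. Library codes run from S1 to S5 in DMSO and from S6 to S10 in BPS, so any effect of that order and the treatment cannot be told apart.

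The 39 members were all lower in BPS on average. Their log2 fold changes ran from -0.54 (Ifit3b) to -0.01 (Mx1) with a median of -0.23, a level 14.9% below that of DMSO, where the median over all tested genes was 0.00 and 49.9% of them lay below 0. A change of -0.4 or beyond was reached by 8 members, as it was by 2.06% of all tested genes. The largest difference, in Ifit3b, was a level 31.1% lower. In 9 members every BPS library lay below every DMSO library (Stat2, Oas2, Eif2ak2, Adar, Ddx58, Samd9l, Rtp4, Parp14 and Tor3a), an arrangement found in 2.72% of all tested genes, with the opposite one in 4.18% and either in 6.9%. In the other 30 the groups overlapped. The fit called 12 members lower and none higher (0), namely those 9 with Trim25, Oasl2 and Dhx58, against 1.82% of all tested genes called lower and 3.06% called higher. These counts come from the contrast that chose the members and support nothing beyond their description. The number called moved with single libraries. It was 6 without DMSO replicate 1 and 5 without DMSO replicate 3, DMSO replicate 4, BPS replicate 2 or BPS replicate 3. In bulk RNA, fewer cells that express a gene and less of its RNA per cell cannot be told apart.

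**Figure D1:**
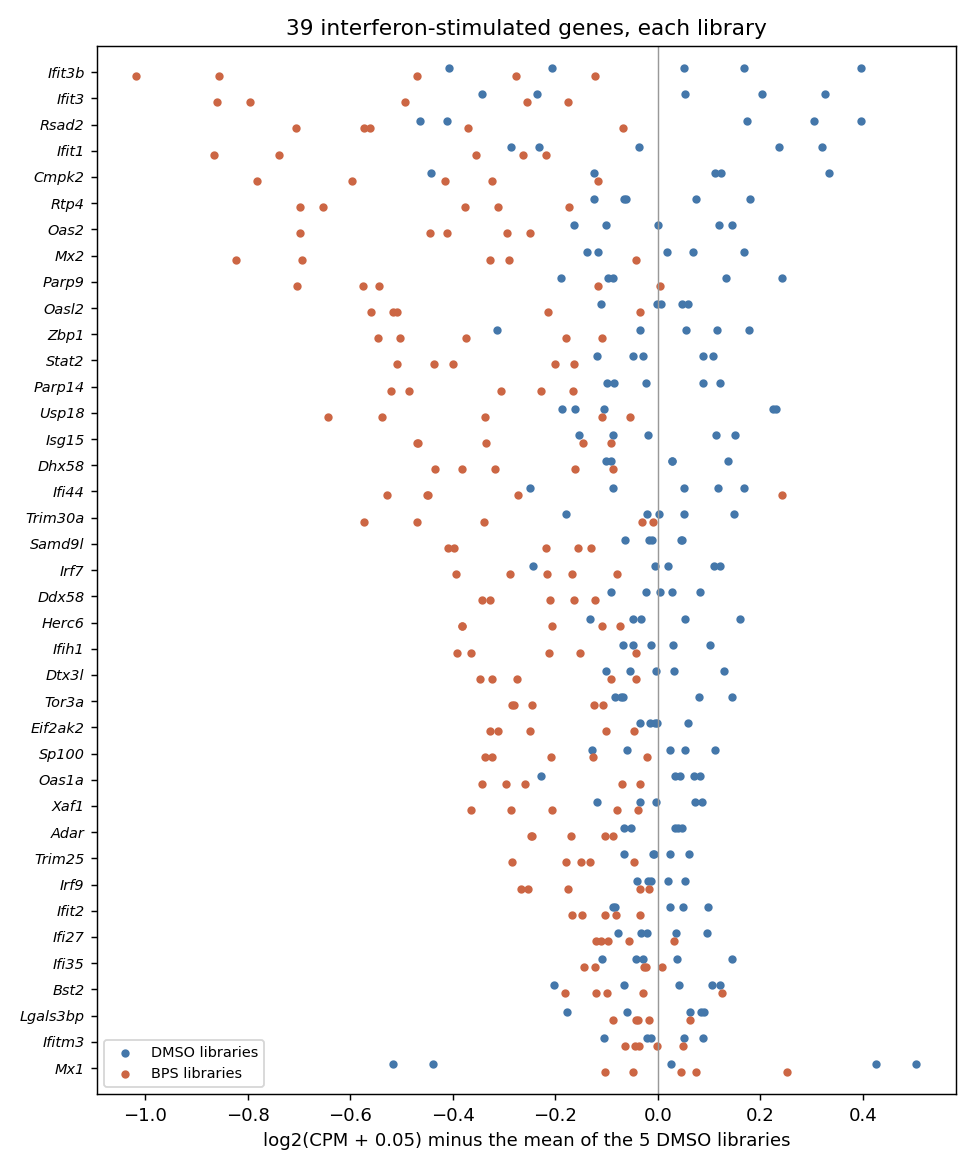
Level of each of the 39 members in each of the 10 libraries, as log2(CPM + 0.05) minus the mean of the 5 DMSO libraries (x axis), with 1 line per gene (y axis) and 1 point per library, coloured by group. BPS replicates 2 and 3 hold most of the lowest points, with medians over the members of -0.38 and -0.39, and BPS replicates 4 and 5 lie nearer to DMSO, at -0.09 and -0.12.

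The members that build the signal itself are Stat2 and Irf9, parts of ISGF3, with Irf7, the factor that amplifies interferon gene transcription, and Usp18, which removes Isg15 from proteins and blocks the receptor. Stat2 stood at 119, 117, 130.4, 129 and 111 CPM in DMSO replicates 1 to 5 and at 91.7, 85.0, 89.3, 105 and 108 CPM in BPS replicates 1 to 5. The highest BPS library, replicate 5, remained below the lowest DMSO library, also replicate 5. The log2 fold change was -0.34 (SE 0.07), a level 20.9% lower. Irf9, the DNA-binding partner of the complex, measured 71.9, 72.2, 73.8, 75.6 and 70.8 CPM in DMSO and 64.5, 60.5, 61.1, 71.1 and 71.9 CPM in BPS, in the same order of replicates. Its BPS replicates 1 to 3 were below all DMSO libraries and its BPS replicates 4 and 5 reached the DMSO range, with a log2 fold change of -0.15 (SE 0.05). For Irf7 the values were 60.8, 65.1, 59.7, 64.6 and 50.6 CPM in DMSO and 51.6, 49.0, 45.6, 53.3 and 56.7 CPM in BPS, and for Usp18 they were 27.4, 26.3, 34.6, 34.4 and 25.9 CPM and 23.3, 18.8, 20.2, 28.3 and 27.3 CPM. In both genes the groups overlapped, with BPS replicates 2 and 3 lowest of all. The log2 fold changes were -0.23 (SE 0.07) for Irf7 and -0.33 (SE 0.12) for Usp18.

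Isg15 encodes a ubiquitin-like protein that is attached to other proteins, and it is among the most widely used readouts of the pathway. Its level was 70.3, 73.7, 80.8, 82.9 and 67.1 CPM in DMSO and 59.2, 54.0, 54.0, 70.1 and 67.5 CPM in BPS. BPS replicates 1, 2 and 3 were below the DMSO range, BPS replicates 4 and 5 were inside it, and the log2 fold change was -0.30 (SE 0.08). The ligases of the group were Herc6, which attaches Isg15, and Trim25, which adds ubiquitin to the RNA sensor encoded by Ddx58. Herc6 ranged over 14.9 to 18.2 CPM in DMSO and 12.5 to 15.5 CPM in BPS (log2 fold change -0.23, SE 0.07). Trim25 ranged over 99.0 to 108 CPM in DMSO and 85.1 to 100.3 CPM in BPS (log2 fold change -0.16, SE 0.04), and its ranges met only at their edges.

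The IFIT genes, which encode proteins that bind foreign RNA ends and stop their translation, gave 3 of the 4 largest differences among the members, and the libraries of those 3 scattered widely. Ifit1 measured 31.4, 30.2, 46.0, 43.4 and 35.9 CPM in DMSO and 31.7, 20.2, 22.1, 30.7 and 28.8 CPM in BPS. Ifit3 measured 34.1, 31.7, 50.4, 46.3 and 41.7 CPM and 35.6, 23.1, 22.1, 33.7 and 28.6 CPM, and Ifit3b, its near-identical copy, 9.41, 8.18, 14.3, 12.2 and 11.2 CPM and 9.98, 5.34, 5.98, 8.96 and 7.83 CPM. All 3 showed the same order: DMSO replicates 3 and 4 were highest, DMSO replicate 2 was lowest within DMSO, and BPS replicate 1 stood above DMSO replicate 2. The log2 fold changes were -0.48 (SE 0.15) for Ifit1, -0.51 (SE 0.16) for Ifit3 and -0.54 (SE 0.18) for Ifit3b, and none of the 3 was called. Reads of Ifit3 and Ifit3b can be divided between the copies by the counting, so their separate values are uncertain. Ifit2, the remaining member of the family, differed less, from 40.0 to 45.5 CPM in DMSO and 37.9 to 41.5 CPM in BPS, with a log2 fold change of -0.11 (SE 0.04).

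**Figure D2:**
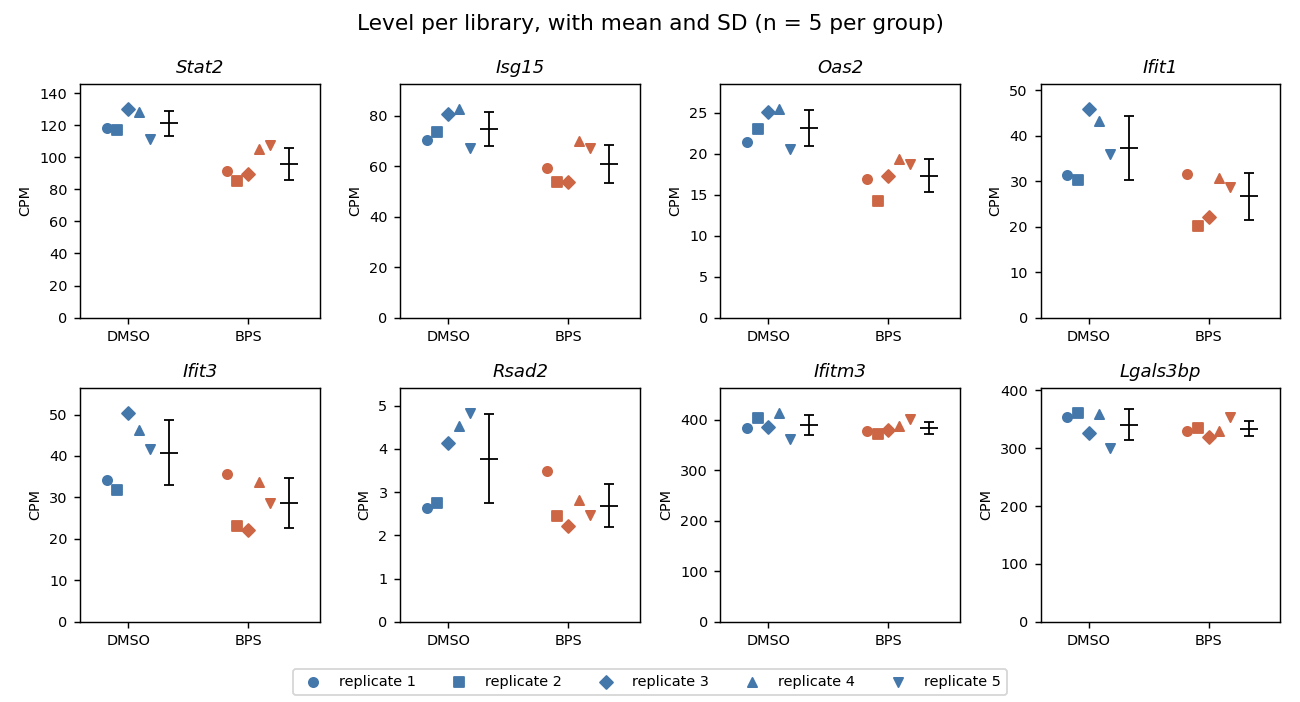
CPM (y axis, starting at 0 in each panel) of 8 members in the DMSO and BPS libraries (x axis), with 1 marker shape per replicate; the black bars give the group mean and 1 SD to either side (n = 5 each). The groups are apart in Stat2 and Oas2, overlap in Isg15, Ifit1, Ifit3 and Rsad2, and in Ifitm3 and Lgals3bp the BPS libraries lie within the DMSO range.

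Among the genes that act on double-stranded RNA, the oligoadenylate synthetases activate RNase L, Eif2ak2 (PKR) shuts down translation, and Adar edits adenosines. Oas2 stood at 21.5, 23.1, 25.1, 25.5 and 20.6 CPM in DMSO and 16.9, 14.2, 17.3, 19.4 and 18.8 CPM in BPS. Every BPS library was below every DMSO library, and the log2 fold change was -0.42 (SE 0.08), a level 25.1% lower. Oasl2, a synthetase-like protein, gave 59.6, 59.4, 61.4, 61.9 and 55.0 CPM in DMSO and 41.7, 41.5, 40.3, 58.0 and 51.2 CPM in BPS, with a log2 fold change of -0.35 (SE 0.09). Here only BPS replicate 4 entered the DMSO range, and BPS replicates 1 to 3 lay far below it. Oas1a ranged over 22.3 to 27.6 CPM in DMSO and 20.6 to 25.5 CPM in BPS, with DMSO replicate 5 at the low end of its group and a log2 fold change of -0.20 (SE 0.07). Eif2ak2 ranged over 78.6 to 83.9 CPM in DMSO and 64.1 to 78.0 CPM in BPS (log2 fold change -0.20, SE 0.05). Adar ranged over 80.9 to 87.6 CPM in DMSO and 71.4 to 79.7 CPM in BPS (log2 fold change -0.17, SE 0.04). Neither overlapped, although both differences were modest.

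Another 4 members sense viral nucleic acid. Ddx58 encodes RIG-I, which detects RNA with a triphosphate end, and ranged over 99.4 to 112 CPM in DMSO and 83.4 to 97.3 CPM in BPS, without overlap, with a log2 fold change of -0.23 (SE 0.05). Ifih1 encodes MDA5, a sensor of long double-stranded RNA, and ranged over 41.7 to 46.9 CPM in DMSO and 33.3 to 42.5 CPM in BPS, with a log2 fold change of -0.23 (SE 0.06). Dhx58 (LGP2), which tunes both, ranged over 22.5 to 26.6 CPM in DMSO and 17.8 to 22.7 CPM in BPS, with a log2 fold change of -0.27 (SE 0.07). Zbp1, a sensor of Z-form nucleic acid that can start cell death, ranged over 18.9 to 26.6 CPM in DMSO and 16.1 to 21.8 CPM in BPS, with a log2 fold change of -0.35 (SE 0.10). Of the 4 sensors, Ddx58 alone had no overlap.

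The 8 antiviral effectors include both large and small differences. Rtp4, a receptor-transport protein that also restrains viral replication, measured 32.7, 32.8, 36.1, 38.8 and 31.4 CPM in DMSO and 26.4, 21.1, 21.8, 30.4 and 27.6 CPM in BPS, and all its BPS libraries were below all its DMSO libraries (log2 fold change -0.43, SE 0.10). Samd9l, a restriction factor of poxviruses, ranged over 94.9 to 102 CPM in DMSO and 74.6 to 90.6 CPM in BPS (log2 fold change -0.26, SE 0.05), again without overlap. Mx2, a dynamin-like GTPase, gave 4.08, 4.14, 4.71, 5.05 and 4.55 CPM in DMSO and 4.36, 2.76, 2.52, 3.66 and 3.57 CPM in BPS (log2 fold change -0.42, SE 0.14). Its BPS replicate 1 was inside the DMSO range and its other 4 BPS libraries were below it.

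Rsad2 encodes viperin, an enzyme that makes a chain-terminating nucleotide, and Cmpk2, its immediate neighbour on chromosome 12, encodes a mitochondrial nucleotide kinase. Rsad2 gave 2.64, 2.74, 4.13, 4.53 and 4.83 CPM in DMSO and 3.48, 2.44, 2.22, 2.82 and 2.46 CPM in BPS, and Cmpk2 gave 5.47, 4.37, 7.53, 6.50 and 6.45 CPM and 4.46, 3.45, 3.93, 5.49 and 4.76 CPM. In both, DMSO replicates 1 and 2 were low within their group and the groups overlapped. Log2 fold changes were -0.49 (SE 0.19) for Rsad2 and -0.46 (SE 0.15) for Cmpk2.

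Ifitm3, a membrane protein that blocks viral fusion, measured 383, 403, 385, 414 and 361 CPM in DMSO and 377, 372, 379, 388 and 402 CPM in BPS, with BPS inside the DMSO range (log2 fold change -0.02, SE 0.03). Bst2 (tetherin), which holds budding virus at the cell surface, ranged over 69.4 to 86.9 CPM in DMSO and 70.5 to 87.1 CPM in BPS, with a log2 fold change of -0.06 (SE 0.07). Mx1, another dynamin-like GTPase, was barely detected, at 0.353, 0.332, 0.507, 0.684 and 0.726 CPM in DMSO and 0.602, 0.459, 0.514, 0.479 and 0.525 CPM in BPS. Its log2 fold change of -0.01 (SE 0.23) turned positive in 6 alternative analyses, and at 13 to 26 counts a library its direction was not resolved. Ifitm3 turned positive in 1, without DMSO replicate 4.

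Parp9, Parp14 and Dtx3l belong to ADP-ribosylation and ubiquitin pathways that act on Stat proteins and at sites of DNA damage, and Trim30a is a ubiquitin ligase. Parp9 measured 31.1, 24.5, 23.0, 24.7 and 28.8 CPM in DMSO and 26.3, 18.0, 16.1, 17.6 and 24.2 CPM in BPS (log2 fold change -0.37, SE 0.14). The highest libraries within each group were replicates 1 and 5, and the groups overlapped. Parp14 ranged over 48.3 to 56.3 CPM in DMSO and 36.1 to 46.1 CPM in BPS, without overlap (log2 fold change -0.34, SE 0.07). Dtx3l, the E3 ligase that lies beside Parp9 on chromosome 16, ranged over 42.4 to 49.8 CPM in DMSO and 35.8 to 44.2 CPM in BPS (log2 fold change -0.21, SE 0.06). Trim30a ranged over 31.6 to 39.6 CPM in DMSO and 24.0 to 35.5 CPM in BPS (log2 fold change -0.27, SE 0.10).

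The remaining members have mixed or less settled roles. Tor3a, an ATPase of the endoplasmic reticulum, ranged over 47.4 to 55.5 CPM in DMSO and 41.2 to 46.6 CPM in BPS, without overlap (log2 fold change -0.21, SE 0.05). Sp100, a nuclear-body protein, ranged over 55.8 to 65.9 CPM in DMSO and 48.3 to 60.1 CPM in BPS (log2 fold change -0.20, SE 0.06). Xaf1, which binds an inhibitor of apoptosis, ranged over 24.2 to 27.9 CPM in DMSO and 20.4 to 25.6 CPM in BPS (log2 fold change -0.19, SE 0.06). Those 3 were about as far from DMSO as the median member. Ifi44 ranged over 16.9 to 22.6 CPM in DMSO and 13.9 to 23.7 CPM in BPS (log2 fold change -0.27, SE 0.14), and BPS replicate 5 was the highest of all 10 libraries while the other 4 BPS libraries were below the lowest DMSO library. Ifi27 ranged over 130.3 to 147 CPM in DMSO and 126 to 140.5 CPM in BPS (log2 fold change -0.07, SE 0.04). Ifi35 ranged over 24.4 to 29.1 CPM in DMSO and 23.8 to 26.5 CPM in BPS (log2 fold change -0.06, SE 0.05). Lgals3bp, a secreted galectin-binding glycoprotein, measured 355, 361, 326, 359.9 and 300.1 CPM in DMSO and 329, 336, 319, 330.5 and 354 CPM in BPS, with BPS again inside the DMSO range (log2 fold change -0.03, SE 0.05).

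The BPS libraries did not share the difference evenly. The median over the 39 members of log2(CPM + 0.05) minus its DMSO mean was -0.22, -0.38, -0.39, -0.09 and -0.12 in BPS replicates 1 to 5. In the DMSO libraries the same median was -0.02, -0.04, 0.08, 0.09 and -0.09. Every BPS median was at or below the lowest DMSO median, but replicate 4 and DMSO replicate 5 were nearly level. Below the whole DMSO range lay 25, 34, 35, 13 and 19 members in BPS replicates 1 to 5, and 2 lay above it in BPS replicate 5. The share of all tested genes outside the DMSO range in each library was not computed, so these counts only describe the members. Within BPS, replicate 4 was the highest library for 20 of 39 members and replicate 2 the lowest for 20. Within DMSO, replicate 5 was the lowest for 23.

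This unevenness was shared between the members. After the mean of each group was taken away, which removes the difference that chose the genes, the deviations of 2 members over the 10 libraries correlated with a median Pearson r of 0.648 over 741 pairs (Spearman 0.648), and 91.1% of pairs were above 0. Without BPS replicates 2 and 4, the libraries farthest out, the median was 0.589. The same median over 7477 other genes at the members' level was -7.91e-05, with 50% of pairs above 0. These are descriptions over 10 libraries with shared depth and handling, and each library enters every pair. The members were listed together because they belong to a pathway and moved one way, and how far that choice bears on these values was not tested.

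**Figure D3:**
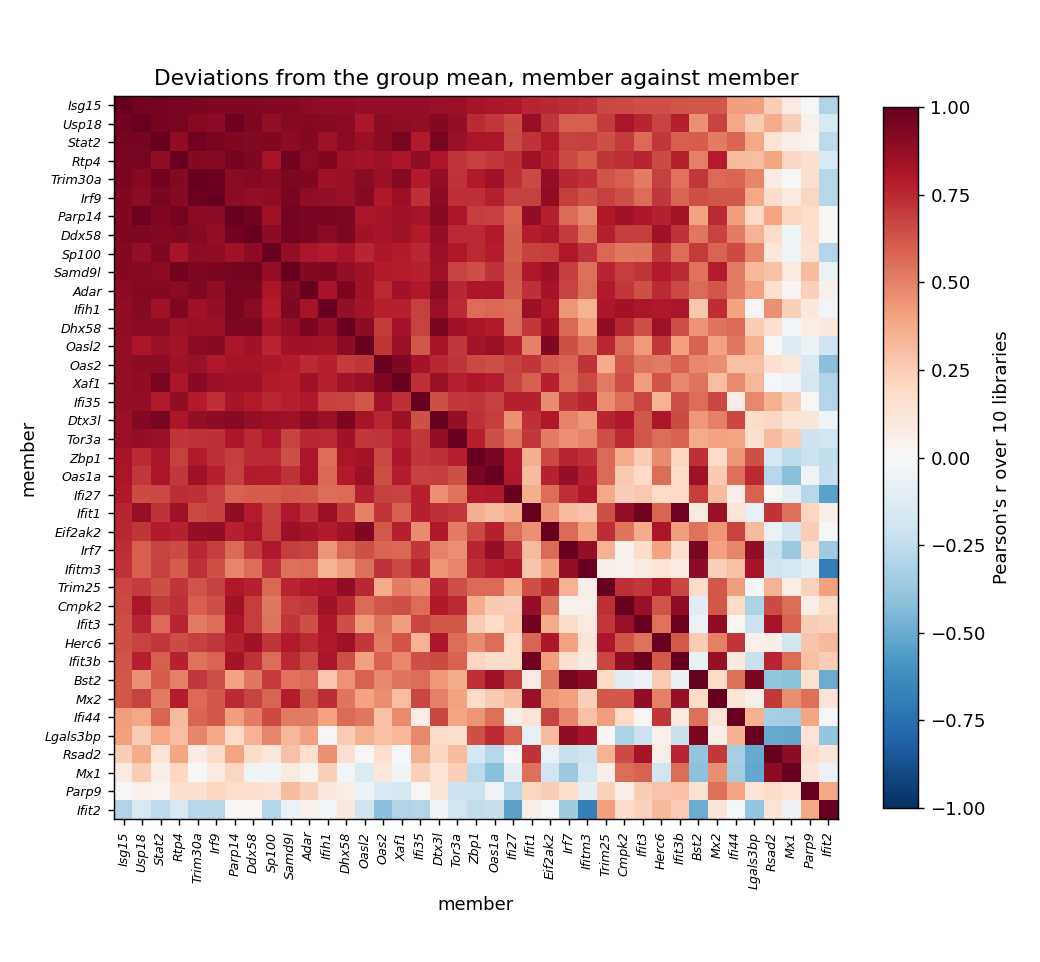
Pearson r between members of the deviations from the group mean of log2 CPM over the 10 libraries (colour scale; both axes list the 39 members in the same order, by their r with Isg15). Most pairs are positive (91.1%), with Isg15, Usp18, Stat2 and Rtp4 in the densest part, and Ifit2, Parp9 and Mx1 stand apart.

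Isg15, taken as the reference, correlated at 0.8 or above with 20 of the other 38 members. The closest were Usp18 (0.96), Stat2 (0.96), Rtp4 (0.95), Trim30a (0.94), Irf9 (0.93) and Parp14 (0.93), all over the same 10 libraries. Below 0.5 were 6 members: Ifit2 (-0.30), Parp9 (-0.02), Mx1 (0.09), Rsad2 (0.25), Lgals3bp (0.41) and Ifi44 (0.42). Lgals3bp instead moved most closely with Bst2 (0.94), Irf7 (0.89) and Ifitm3 (0.83), and Ifit3 with Ifit3b (0.98) and Ifit1 (0.96). The counting can divide reads between Ifit3 and Ifit3b, and the part of this in their r was not tested. Members that varied more within their group also differed more between the groups: across the members the size of the log2 fold change and the pooled SD within groups correlated at 0.653 (Spearman 0.737, n = 39), and at 0.852 (Spearman 0.869, n = 38) without Mx1, whose scatter is that of a few counts. These fold changes come from the contrast that chose the members, and the relation was not computed for other genes, so it is a description only. The median pooled SD of log2 CPM was 0.13 in the members. It was 0.078 in all tested genes and 0.059 in 7508 genes at the members' level.

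Members with and without the ISRE core differed from DMSO by overlapping amounts. The 13 members with a core in their window had a median log2 fold change of -0.27 (range -0.54 to -0.02), and 3 of them were without overlap. The 15 members whose window held none had a median of -0.20 (range -0.46 to -0.03), and 2 were without overlap. In the 11 members that had no window the median was -0.34. No test was made because the difference had chosen the genes.

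Which RefSeq transcripts carry a member's counts decides some of these values. The 39 members are summed from 94 transcripts, and 18 members have 1 transcript. In 6 members less than 50% of the counts lay on curated accessions: 29.1% in Ifit3, 1.93% in Oas1a, 1.32% in Oasl2, 6.28% in Parp9, 41.7% in Xaf1 and 39.6% in Sp100. With curated transcripts alone, 37 of 39 members were still lower, Parp9 and Oas1a turned to 0.18 and 0.06 with SEs of 0.45 and 0.48, and 5 members were called. Stat2, Oas2, Ddx58 and Parp14 were the 4 among those 5 that had also been called before, and Sp100 was the other.

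The upstream steps of the pathway and other interferon-stimulated genes were tested in the same fit, in 5 lists. They hold no member, but all were drawn up with earlier results on these libraries known. The ligands were nearly silent. Of 18 type I interferon genes, 15 had 0 counts in every library, as had Ifng (type II), Ifnl2 and Ifnl3 (type III). A count of 0 allows at most 3 counts or about 0.0755 to 0.0849 CPM per library. Ifnb1 and Ifna1 had at most 1 count in any library. Ifnz was the only ligand with enough counts to test, at 11 to 25 per library. It measured 0.353, 0.281, 0.481, 0.368 and 0.502 CPM in DMSO and 0.551, 0.517, 0.298, 0.564 and 0.692 CPM in BPS, and did not pass (log2 fold change 0.40, SE 0.24, edgeR quasi-likelihood test, Benjamini-Hochberg adjusted p = 0.411).

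Of the receptors, kinases and Stat proteins, 10 of 11 were tested, 2 fell and none (0) rose. Over all tested genes, 1.82% were called lower and 3.06% higher. Jak1, a receptor kinase shared by many cytokines, was at 245, 250.0, 257, 250.0 and 239.8 CPM in DMSO and 205, 212, 226, 205 and 238 CPM in BPS. Its mean fell from 248 ± 6.50 CPM in DMSO to 217 ± 14.2 CPM in BPS (mean ± SD, n = 5 each; log2 fold change -0.19, SE 0.04, edgeR quasi-likelihood test, Benjamini-Hochberg adjusted p = 0.0158). Jak2, a kinase of other cytokine receptors, fell from 140.0 ± 2.80 CPM in DMSO to 132 ± 1.08 CPM in BPS (mean ± SD, n = 5 each), with a log2 fold change of -0.09 (SE 0.02; edgeR, adjusted p = 0.0139). Every BPS library of Jak1 and Jak2 lay below every DMSO library. With curated transcripts alone the log2 fold change of Jak2 was -0.08 (SE 0.10) and was not called (edgeR, adjusted p = 0.771).

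The receptor chains did not pass. Ifnar1 measured 130.2 ± 2.26 CPM in DMSO and 127 ± 1.84 CPM in BPS (mean ± SD, n = 5 each), with a log2 fold change of -0.03 (SE 0.02; edgeR, adjusted p = 0.382). Ifnar2 measured 54.0 ± 2.92 CPM in DMSO and 53.0 ± 3.91 CPM in BPS (mean ± SD, n = 5 each), with a log2 fold change of -0.03 (SE 0.05; edgeR, adjusted p = 0.845). Tyk2, the kinase on Ifnar1, did not pass either (log2 fold change -0.17, SE 0.06, edgeR adjusted p = 0.166). The list's median log2 fold change was -0.06.

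None of the 15 genes that restrain the signal was called by edgeR (0), where 4.87% of all tested genes were called. An unadjusted p under 0.05 in edgeR was found in 4 of the 15 and in 2751 of all 14593 tested genes. DESeq2 and limma-voom called 0 each, and 8 of the 15 had a log2 fold change below 0. Socs1 and Socs3, feedback inhibitors of the Jak kinases, came nearest. Socs1 measured 9.56 ± 1.07 CPM in DMSO and 8.31 ± 0.383 CPM in BPS (mean ± SD, n = 5 each; log2 fold change -0.20, SE 0.07, edgeR adjusted p = 0.159). Socs3 measured 53.1 ± 2.59 CPM in DMSO and 48.0 ± 3.17 CPM in BPS (mean ± SD, n = 5 each; log2 fold change -0.15, SE 0.05, edgeR adjusted p = 0.0998), and leaving out BPS replicate 2 took it past the threshold (edgeR, adjusted p = 0.0375). Irf2, a repressor of ISRE-driven transcription, had a log2 fold change of -0.07 (SE 0.04; edgeR, adjusted p = 0.361). The median of the list was -0.02.

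The sensors and adaptors outside the members gave the same count. None of 18 was called by edgeR (0), where 4.87% of all tested genes were called. An unadjusted p under 0.05 in edgeR was found in 5 of the 18 and in 2751 of all 14593 tested genes. DESeq2 and limma-voom called 0 each. Of the 18, 14 had a log2 fold change below 0, against 49.9% of all tested genes, and the median was -0.07. Sting1, the adaptor of DNA sensing, measured 70.4 ± 0.861 CPM in DMSO and 66.5 ± 2.49 CPM in BPS (mean ± SD, n = 5 each; log2 fold change -0.08, SE 0.03, edgeR adjusted p = 0.0998), and without BPS replicate 1 it passed (edgeR, adjusted p = 0.0362). Mavs, the adaptor that Ddx58 and Ifih1 act through, had a log2 fold change of -0.06 (SE 0.02; edgeR, adjusted p = 0.255). For Irf3, the factor both adaptors activate, it was 0.03 (SE 0.04; edgeR, adjusted p = 0.748).

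Beyond the 39 members, 57 other interferon-stimulated genes were tested. Of the 57, 53 had a log2 fold change below 0, against 49.9% of all tested genes, and the median was -0.14. The fit called 10 lower, against 1.82% of all tested genes, and none (0) higher. All BPS libraries lay below all DMSO libraries in 16 of the 57, against 2.72% of all tested genes, and above them in 1 (Isg20, named after its value was seen). The list was drawn up with earlier results on these libraries known, so its direction is not independent of theirs. The count of 10 fell to 6 without DMSO replicate 1, 5 without DMSO replicate 3, 5 without DMSO replicate 4, 4 without BPS replicate 2 and 6 without BPS replicate 3. It was 5 with exact transcript versions, 3 with curated transcripts, 16 with scaling by library size alone and 19 with DESeq2.

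Of the 10 that fell, Ifi204, a nuclear DNA-binding protein of the p200 family, was at 152, 147, 151, 149.6 and 149.9 CPM in DMSO and 128, 121, 124, 132 and 128 CPM in BPS. It fell from 150.0 ± 1.73 CPM in DMSO to 127 ± 3.92 CPM in BPS (mean ± SD, n = 5 each), with no overlap (log2 fold change -0.24, SE 0.02, edgeR adjusted p = 7.48e-05). Pml, which builds the nuclear bodies that also hold Sp100, fell from 153 ± 3.78 CPM in DMSO to 137 ± 4.13 CPM in BPS (mean ± SD, n = 5 each; log2 fold change -0.16, SE 0.02, edgeR adjusted p = 0.00379). Both were apart from DMSO in all 5 BPS libraries. Helz2, a nuclear helicase co-activator, fell from 74.7 ± 2.83 CPM in DMSO to 64.7 ± 3.67 CPM in BPS (mean ± SD, n = 5 each; log2 fold change -0.21, SE 0.04, edgeR adjusted p = 0.0115). With curated transcripts alone its adjusted p in edgeR was 0.0557. Slfn9 fell from 170.3 ± 5.18 CPM in DMSO to 153 ± 5.05 CPM in BPS (mean ± SD, n = 5 each; log2 fold change -0.15, SE 0.03, edgeR adjusted p = 0.00859). With exact transcript versions or curated transcripts alone its log2 fold change was 0.01 with an SE of 0.29, which leaves its direction unresolved. Slfn8 is a related gene, and how the counting divides reads between both was not tested.

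Parp12, an ADP-ribosyltransferase, fell from 48.7 ± 2.15 CPM in DMSO to 43.0 ± 2.12 CPM in BPS (mean ± SD, n = 5 each; log2 fold change -0.18, SE 0.04, edgeR adjusted p = 0.0231). Uba7, the enzyme that activates Isg15 for conjugation, fell from 30.8 ± 0.987 CPM in DMSO to 27.9 ± 1.02 CPM in BPS (mean ± SD, n = 5 each; log2 fold change -0.14, SE 0.03, edgeR adjusted p = 0.0304). Together with Herc6, Uba7 puts Isg15 onto its targets. Pnpt1, a mitochondrial RNA-degrading enzyme, fell by a log2 fold change of -0.11 (SE 0.02; edgeR, adjusted p = 0.0229). Rnf213, a large ubiquitin ligase, fell from 269 ± 15.7 CPM in DMSO to 222 ± 22.8 CPM in BPS (mean ± SD, n = 5 each; log2 fold change -0.27, SE 0.06, edgeR adjusted p = 0.0325). These 4 calls were close to the threshold. That on Uba7 was lost without each of DMSO replicates 1 to 4 and BPS replicates 1 to 3 (edgeR, adjusted p 0.0535 to 0.0754), and that on Rnf213 without each of DMSO replicates 2 to 4 and BPS replicates 1 to 3 (edgeR, adjusted p 0.0598 to 0.0800). Without DMSO replicate 3 or BPS replicate 2 the adjusted p in edgeR was 0.0550 and 0.0566 for Pnpt1 and 0.0562 and 0.0556 for Parp12. Pnpt1 was also lost without DMSO replicate 1 (0.0571) and with curated transcripts (0.168), Uba7 with curated transcripts (0.0518), and Parp12 without DMSO replicate 4 (0.0518) or BPS replicate 3 (0.0600). The remaining 2 calls were Trim21 and Ube2l6, the latter the conjugating enzyme for Isg15.

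**Figure D4:**
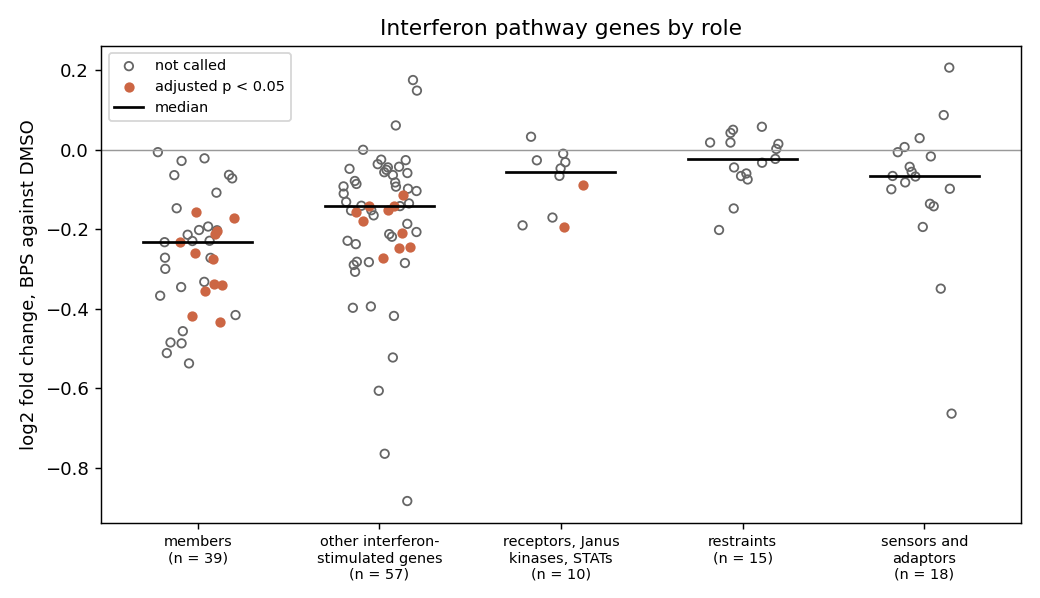
Log2 fold change of BPS over DMSO for each tested gene (points) in the members and in the pathway lists, with the list medians as bars; filled points passed an adjusted p of 0.05 in edgeR's quasi-likelihood test. The medians are -0.23 in the members, -0.14 in the other interferon-stimulated genes, -0.07 in the sensors and adaptors, -0.06 in the receptors and kinases and -0.02 in the restraints.

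The labelled cell type was read against marker lists. The summed level of 10 fat-progenitor markers was 3112 to 3133 CPM in DMSO and 3166 to 3221 CPM in BPS, while 6 of 7 markers of mature fat cells were under 1 CPM in every library. Macrophage markers, from a cell type that also expresses interferon-stimulated genes, summed to 11.6 to 18.4 CPM in DMSO and 12.7 to 21.1 CPM in BPS. Of these 10 markers, 6 were tested and none (0) was called by edgeR. Some were detected in every library, such as Lyz2 at 240 to 467 counts and Cd68 at 88 to 143 counts. Csf1r had 0 counts in all libraries. All 10 lymphocyte markers were under 1 CPM, as were 4 of 5 plasmacytoid dendritic cell markers. The 7 endothelial markers summed to 17.9 to 23.5 CPM in DMSO and 17.4 to 23.3 CPM in BPS, and edgeR called none (0) of them. In 3 lists some markers were called higher in BPS, as were 3.06% of all tested genes. Mural-cell and contractile markers summed to 1086 to 1162 CPM in DMSO and 1403 to 1507 CPM in BPS, and 4 of 7 rose (Cspg4, Acta2, Mcam and Des). Of the progenitor markers 2 of 10 rose, Cd34 (log2 fold change 0.28, edgeR adjusted p = 0.000429) and Thy1 (0.19, edgeR adjusted p = 0.0013). The 6 mesothelial markers summed to 9.05 to 11.0 CPM in DMSO and 11.0 to 12.9 CPM in BPS. Most of that was Krt19, at 8.21 to 9.99 CPM in DMSO and 10.2 to 11.9 CPM in BPS. Only 2 of the 6 were tested, and they went opposite ways. Krt19 rose (0.27, edgeR adjusted p = 0.0369), and Wt1 was lower without being called (-0.59, edgeR adjusted p = 0.155). The part of these markers in the members' lower level was not tested.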

How the data were processed

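RNA from 5 DMSO and 5 BPS libraries was sequenced after a directional library preparation, per the labels' protocols. The deposited table holds the authors' estimated counts for 107384 RefSeq transcripts, made with kallisto 0.42.4 per the submitters' processing notes; the index, build and strand setting are not given in the sources used here. Transcripts were summed to 32899 genes through a RefSeq table (GRCm38.p6, names only), which covered 93.09% of counts (6.91% had no match), and rounded. Of these counts, 72.11% matched with the exact accession version. Libraries held 37920689 to 42717227 counts.

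Genes passing filterByExpr (14593) were tested with edgeR 4.0.16 (TMM scaling, quasi-likelihood test, Benjamini-Hochberg adjustment over all of them, threshold 0.05, the 2 groups, no covariate) in R 4.3.3. limma 3.58.1 (voom) and DESeq2 1.42.0 were alternatives. The procedure was tested on simulated counts, in which some genes were given a difference. It called 64.2% of those given an absolute log2 fold change of 0.3, 77.6% at 0.6 and 96.9% at 1. Of its calls, 6.51% fell on genes given none. Changes smaller than 0.3, such as the members' median, were not simulated. Other alternatives changed the scaling, the filter, the transcript matching or the replicate block, summed Ifit3 and Ifit3b, or left out each library in turn. CPM are counts per 1000000 assigned counts after TMM scaling, and 0.05 was added before logarithms in the spread and correlation values.

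The members and all lists were chosen with earlier results of these data known. By the naming rule, every library's value is given for Irf7, Irf9, Stat2, Isg15, Usp18, the 10 members with the largest difference at a mean of 1 CPM or more and the 3 with the smallest. Outside the members, the genes named are 12 pathway genes listed by name, of which 1 is not reported here, and up to 8 called genes per list, most of them with group means or the log2 fold change only. Promoter sequences are RefSeq's, on GRCm38.p6.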

Additional observations from a re-analysis of the deposited data

Results flagged for a closer look

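In 3 of 118 groups of 5 libraries that were checked, 1 library stood apart from the other 4 by more than Dixon's critical value of 0.71; chance alone gives about 5.9 such groups. Oas1a, an oligoadenylate synthetase, was at 22.3 CPM in DMSO replicate 5, below the other DMSO libraries. Ifi44 was at 23.7 CPM in BPS replicate 5, above the other BPS libraries. Pml, which is not a member, was at 159.6 CPM in DMSO replicate 5, above the other DMSO libraries.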

How the results depend on the processing

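The direction of the members held in nearly every alternative, while the number called did not. Over the alternatives that keep all libraries, the median log2 fold change of the members ran from -0.2468 to -0.2278, and when 1 library was left out from -0.2738 to -0.2055. Members below 0 were 37 to 39 when 1 library was left out, and 37 with curated transcripts alone. With exact transcript versions 35 of 35 tested members were below 0, and Stat2, Bst2, Ifi44 and Lgals3bp could not be tested.

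Members called were 12 in the analysis reported, 19 with DESeq2, 7 with the replicate block, 6 with exact versions, 5 with curated transcripts and 5 to 15 without 1 library. Genes called in all were 711, then 371 with the block, 327 with exact versions, 311 with curated transcripts and 449 to 772 without 1 library (449 without DMSO replicate 2, 462 without BPS replicate 2, 465 without BPS replicate 3 and 462 without BPS replicate 4). Other interferon-stimulated genes called were 10, then 16 with library size alone, 19 with DESeq2, 5 with the block, 5 with exact versions, 3 with curated transcripts and 4 to 13 without 1 library. Receptors, kinases and Stat genes called were 2 at each left-out library and 1 with the block, exact versions or curated transcripts. For the sensors the count was 1 with library size alone, and without 1 library it was 0 to 1, as for the restraints. Ligands called stayed at 0. Exact versions carry 72.11% of all counts and curated transcripts 78.73%, against 93.09% in the analysis reported. The cause of the changed numbers was not tested for any setting.

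The deviations of same-numbered libraries correlated at 0.0761, -0.0263, -0.0299, 0.0637 and -0.0433, and those of differently numbered libraries at -0.066 to 0.0751. These values showed no pairing by replicate number, but cannot exclude one. Of 790 values of named genes under the alternatives, 780 kept their sign. The other 10 were 6 of Mx1, 1 of Ifitm3, 1 of Parp9 (0.18, SE 0.45, with curated transcripts) and 2 of Slfn9, which came to 0.0078 (SE 0.288) with exact versions and 0.0059 (SE 0.291) with curated transcripts, unresolved around 0. Calls were lost in 29 values, 9 of them for Uba7 and 7 for Rnf213. With the replicate block the adjusted p in edgeR was 0.0532 for Jak2, 0.0517 for Slfn9, 0.0732 for Pnpt1, 0.064 for Uba7 and 0.0686 for Rnf213. The depth of 13 to 26 counts limits Mx1.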
